A study of Mus musculus with 3 samples.

Results

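The genes described here encode the cytosolic translation initiation factors (eIF), the elongation factors (eEF) and a few of their dedicated modifying enzymes. They were taken as every protein-coding gene of GENCODE M21 whose symbol begins with Eif1 to Eif6 or with Eef1 or Eef2. Symbols beginning with Eif2ak (the eIF2 kinases) and Eif2s3 were left out. This gave 62 genes of the 55536 in the gene tables, 22028 of which are protein-coding. The rule uses names and gene types and no measured value.

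Polyadenylated RNA was sequenced from regulatory T cells (Tregs, CD4 T cells that restrain immune responses), which the labels call inflammation-experienced. The cells were primary cells of a male adult mouse of 6 months, of the strain written Foxp3CreERT2 x Rosa26YFP, in which a tamoxifen-inducible Cre stands at the Treg gene Foxp3 and a yellow fluorescent reporter at Rosa26. There is 1 group with 1 biological replicate and 3 technical replicates, here called libraries 1, 2 and 3 by their technical replicate numbers. Where they were divided is not in the labels, which hold no control cells, so p-values measure only how far these 3 libraries of one sample differ.

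Translation begins when eIF1, eIF1A, eIF3, eIF5 and the eIF2 complex with its initiator tRNA gather on the small ribosomal subunit. The eIF4F complex then recruits the mRNA: eIF4E holds the cap, eIF4G is the scaffold and eIF4A unwinds the leader. Elongation uses eEF1A to deliver aminoacyl-tRNA, the eEF1B subunits to recharge eEF1A with GTP, and eEF2 to move the ribosome along. T cells are known to raise the output of this machinery when they are activated, through mTOR and its targets, the 4E-binding proteins.

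Short stretches of coding sequence show where this machinery is regulated. They are read 5′ to 3′ from the GENCODE M21 transcripts on GRCm38, and the coordinates of a stretch that crosses an intron run over that intron. The first is the codon, in capitals, of the serine that the eIF2 kinases phosphorylate in eIF2 alpha. It is codon 52 of Eif2s1-201 when the initiator methionine is counted, in exon 2 of 8, at chr12:78866662-78866700 on the plus strand.
Eif2s1: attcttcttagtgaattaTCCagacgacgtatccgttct

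The next set shows, in capitals, the codons of the motif that docks onto eIF4E, which the scaffolds, the 4E-binding proteins and the transporter share. They lie at chr8:27260547-27273375 (plus strand) for Eif4ebp1, chr10:61435051-61452405 (minus) for Eif4ebp2, chr16:20681203-20681259 (plus) for Eif4g1, chr4:138156632-138156688 (plus) for Eif4g3 and chr11:3203724-3213289 (plus) for Eif4enif1. The stretches of Eif4g1 and Eif4g3 each lie within 1 exon, and the other stretches cross from exon 1 into exon 2.
Eif4ebp1: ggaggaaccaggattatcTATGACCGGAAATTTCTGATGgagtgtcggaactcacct
Eif4ebp2: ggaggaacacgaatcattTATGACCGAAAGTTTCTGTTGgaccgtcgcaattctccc
Eif4g1: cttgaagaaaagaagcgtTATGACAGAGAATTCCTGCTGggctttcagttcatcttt
Eif4g3: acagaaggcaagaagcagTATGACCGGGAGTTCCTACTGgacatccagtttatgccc
Eif4enif1: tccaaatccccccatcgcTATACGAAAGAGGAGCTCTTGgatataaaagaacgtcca

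The last set carries the single residues that receive a unique modification. Capitals mark the lysine codon that is turned into hypusine in eIF5A, codon 50 in both paralogues, and the histidine codon that is turned into diphthamide in eEF2, codon 715. The positions are chr11:69918019-69919186 (minus strand) for Eif5a, chr3:28782181-28782730 (plus) for Eif5a2 and chr10:81181285-81181323 (plus) for Eef2, in exon 12 of its 14 exons.
Eif5a: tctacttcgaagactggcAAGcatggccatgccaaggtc
Eif5a2: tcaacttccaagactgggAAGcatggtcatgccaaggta
Eef2: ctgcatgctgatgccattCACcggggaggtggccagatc

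Of the 62 genes, 58 were found at 1 TPM (a level per transcript length, scaled to the same total in each library) or more in all 3 libraries. Together they took 17669, 17527 and 17767 TPM in libraries 1, 2 and 3. Eef1a1 alone made up 35.0% ± 0.639 (SD, n = 3 libraries) of that sum. The median gene of the set stood at percentile 85.1 of the 16115 genes with 1 TPM or more in at least 1 library, and 26 of the 62 were at percentile 90 or above. On average 24 members reached 100 TPM and 7 reached 500 TPM. These are levels of mRNA in a bulk sample, in which the number of cells of a kind and the RNA per cell cannot be told apart.

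**Figure D1:**
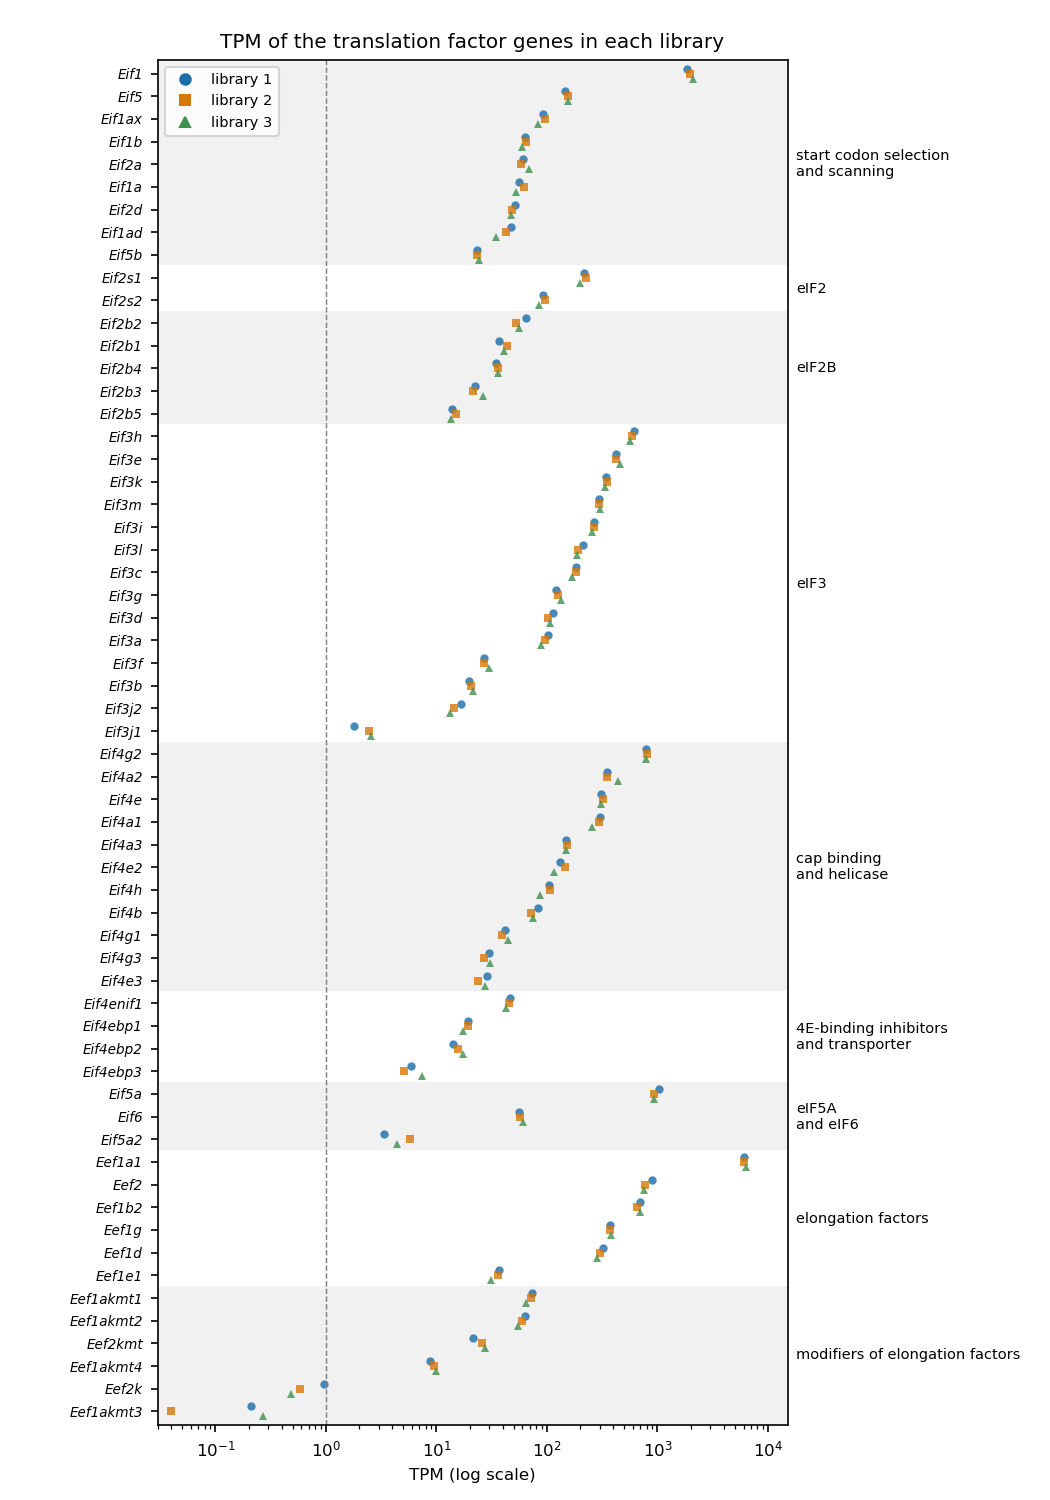
TPM of the 60 members with any count, on a log scale, with 1 point per library (circle, square and triangle for libraries 1, 2 and 3) and genes ordered by level within each role; the dashed line marks 1 TPM. Eef1a1 and Eif1 lie farthest right, near 6173 and 1974 TPM on average, and Eef2k and Eef1akmt3 lie under 1 TPM.

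The libraries held 11829501, 14136139 and 10667765 estimated counts on genes. All 7 genes listed for Tregs were detected, among them Trac, Cd3e and Cd4, which other CD4 T cells share. The summed level of the 7, which therefore does not measure Treg content, was 5103, 4860 and 5228 TPM in libraries 1, 2 and 3. Trac and Cd3e, at 2910 ± 86.3 and 1119 ± 9.75 TPM (SD, n = 3), weighed most in that sum, while Foxp3 averaged 16.1 ± 1.86 TPM. Il2ra (85.55, 63.3 and 98.1 TPM), Ctla4 (146, 96.4 and 130) and Ikzf2 (451, 371 and 478) moved between the libraries. Genes of other cells moved as well. The 3 erythroid genes summed to 2.85, 43.6 and 256 TPM, the 4 B cell genes to 20.5, 44.5 and 56.6, the 2 plasma cell genes to 0.990, 22.2 and 27.3, the 3 myeloid genes to 2.93, 35.3 and 13.4, the 2 CD8 T cell genes to 5.88, 12.4 and 15.2 and the 2 NK cell genes to 1.03, 0.520 and 1.84. Mzb1 (plasma cell) and Hba-a2 (erythroid) were at 0 in library 1. A list of 6 proliferation genes, added after the values had been seen, summed to 2669, 2448 and 1763 TPM and was lowest in library 3 for all 6 genes.

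Start codon selection was led by Eif1, whose product keeps the scanning ribosome open until it meets the start codon. Eif1 stood at 1855, 1988 and 2078 TPM in libraries 1, 2 and 3, second of all members, while its close copy Eif1b stood at 63.2, 65.0 and 59.4 TPM. The lowest library of Eif1 was far above the highest of Eif1b, and the difference of log2(TPM + 0.1) was 4.98 ± 0.13 (SD, n = 3). In log2 CPM of whole-number counts it was -0.62, with the whole-number count of Eif1 at 1.35% of its estimated count. The proteins of this pair are 92.0% identical over 113 residues and their coding sequences 81.1% identical.

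Eif5, whose product triggers GTP hydrolysis by eIF2 once the start codon is found, was at 147, 156 and 156 TPM. Eif1ax, which encodes eIF1A, was at 92.1, 95.6 and 82.2 TPM, and its autosomal relative Eif1a at 55.7, 61.4 and 53.0 TPM. Eif1ax was higher in each library, by 0.67 ± 0.05 on the log2(TPM + 0.1) scale, an order that turned round on protein-coding transcripts. Eif2a, an eIF2-independent tRNA carrier that is a separate gene from eIF2 alpha, was at 60.4, 58.6 and 68.6 TPM. The remaining genes of this role, Eif2d, Eif1ad and Eif5b, averaged 49.0 ± 2.41, 41.5 ± 6.49 and 23.6 ± 0.481 TPM (SD, n = 3), so Eif5b, the factor that joins the ribosomal subunits, was lowest.

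In the eIF2 complex, Eif2s1 (the alpha subunit, whose phosphorylated serine codon is shown above) was at 216, 226 and 198 TPM. Eif2s2, the beta subunit, was at 91.7, 95.8 and 85.3 TPM. The alpha subunit exceeded the beta subunit by 1.23 ± 0.02 on the log2(TPM + 0.1) scale, with no overlap between the libraries. On protein-coding transcripts alone this order turned round, as given with the transcript types.

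The 5 subunits of eIF2B, the exchange factor that reloads eIF2 with GTP and is blocked by phosphorylated eIF2, spanned a narrow range. Eif2b2 averaged 57.6 ± 6.34 TPM, Eif2b1 40.4 ± 3.11, Eif2b4 35.8 ± 1.11 and Eif2b3 23.5 ± 2.80 (SD, n = 3). The catalytic epsilon subunit Eif2b5 was lowest, at 13.9, 15.2 and 13.7 TPM. Each of the 5 was below both eIF2 subunits in every library.

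The eIF3 subunits, which form the scaffold that binds the small ribosomal subunit, were spread over a much wider range although they are built into one complex. Eif3h led at 616, 593 and 569.8 TPM, followed by Eif3e at 423, 425 and 456, Eif3k at 341, 351 and 338 and Eif3m at 296, 298 and 304 TPM. Eif3b, a core subunit, was at 19.8, 20.6 and 21.3 TPM, so the ratio of Eif3h to Eif3b in TPM was 28.9 ± 2.15 (SD, n = 3). Between these lay Eif3i, Eif3l, Eif3c, Eif3g, Eif3d, Eif3a and Eif3f, with means that ran from 263 TPM for Eif3i to 28.0 TPM for Eif3f. In whole-number counts, not adjusted for length, the gap was smaller: 1247, 1277 and 1205 for Eif3h against 259, 313 and 240 for Eif3b. Those were 18.2% and 55.3% of the estimated counts of Eif3h and Eif3b.

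The loosely bound eIF3j subunit is encoded by a pair of nearly identical genes. Eif3j2 was at 16.7, 14.5 and 13.2 TPM and Eif3j1 at 1.79, 2.46 and 2.54 TPM. Their coding sequences are 99.2% identical, and the posterior SD of the count was 10.5% of the count for Eif3j1 and 2.45% for Eif3j2, so the split between them rests on how the authors' model shared reads. In the whole-number counts the order was the opposite, with Eif3j1 above Eif3j2 by 3.14 in log2 CPM, and the whole-number count of Eif3j2 was 0.307% of its estimated count.

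Among the cap-binding and helicase genes, Eif4g2 was highest. It encodes a relative of the eIF4G scaffold that lacks the eIF4E-binding part and serves cap-independent initiation. It stood at 783, 797 and 779 TPM, against 41.9, 38.9 and 44.6 TPM for the scaffold Eif4g1 and 30.0, 26.9 and 30.7 TPM for the scaffold Eif4g3. Eif4g1 was below Eif4g2 by 4.23 ± 0.12 on the log2(TPM + 0.1) scale and above Eif4g3 by 0.52 ± 0.03. The order of Eif4g1 and Eif4g3 was not stable: the difference was -0.16 in log2 CPM of estimated counts, -0.063 in log2 CPM of whole-number counts and -0.049 on protein-coding transcripts.

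The cap-binding protein gene Eif4e was at 309.9, 322 and 308 TPM. Its relatives Eif4e2, whose product can hold caps without recruiting the scaffold, and Eif4e3 were at 132, 147 and 117 TPM and at 28.9, 23.8 and 27.3 TPM. The germ-line relative Eif4e1b was at 0 counts in all 3 libraries, which allows up to 0.254, 0.212 and 0.281 CPM (counts scaled to the library total) in libraries 1, 2 and 3. Eif4e exceeded Eif4e2 by 1.25 ± 0.13 and Eif4e3 by 3.55 ± 0.18 on the log2(TPM + 0.1) scale, in every library. In log2 CPM of whole-number counts Eif4e minus Eif4e2 was -1.51.

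The helicase genes Eif4a1 and Eif4a2 were close. Eif4a1 was at 299.9, 298 and 256 TPM and Eif4a2 at 349, 348 and 435 TPM, a difference of -0.40 ± 0.31 on the log2(TPM + 0.1) scale with the widest gap in library 3 and the opposite sign on protein-coding transcripts. Eif4a3, the member of the exon junction complex, was at 148, 153 and 148 TPM. The RNA-binding stimulators of the helicase, Eif4b and Eif4h, were at 83.4, 72.0 and 75.3 TPM and at 105, 106 and 87.3 TPM, with Eif4b below Eif4h in each library. Eif4b was the higher of the pair in CPM of estimated counts and of whole-number counts, by 0.32 and 1.23 in log2, which are not adjusted for length. Eif4a1 minus Eif4a3 was -3.36 in log2 CPM of whole-number counts, against 0.92 ± 0.12 in log2(TPM + 0.1).

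The 4E-binding proteins, which keep eIF4E from the scaffold until mTOR phosphorylates them, were low. Eif4ebp1 was at 19.5, 19.2 and 17.3 TPM, Eif4ebp2 at 14.1, 15.5 and 17.5 and Eif4ebp3 at 5.94, 5.06 and 7.36 TPM. The order of Eif4ebp1 and Eif4ebp2 was not the same in all libraries: Eif4ebp1 was higher in libraries 1 and 2 and slightly lower in library 3. It was lower by 2.21 in log2 CPM of estimated counts and also on protein-coding transcripts. Eif4e exceeded the sum of the 3 genes 7.75 ± 0.408 times in TPM (SD, n = 3). That ratio leans on short transcripts: Eif4e-206 and Eif4e-205, of 526 and 729 bases, took 37.9% and 37.8% of the TPM of Eif4e. Eif4e-201, of 4991 bases, took 9.60% of the TPM but held 1403 estimated counts on average, against 537 and 756 for those transcripts. The transporter gene Eif4enif1 averaged 44.7 ± 2.11 TPM.

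Eif5a, which relieves ribosomes that stall and carries the hypusine shown above, was at 1022, 922 and 933 TPM. Its paralogue Eif5a2 was at 3.39, 5.72 and 4.38 TPM. The proteins are 82.5% identical, and the difference in level was 7.73 ± 0.44 on the log2(TPM + 0.1) scale. Eif6, which keeps large ribosomal subunits from joining too early, averaged 58.0 ± 2.87 TPM.

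The elongation factors include the member with the highest level. Eef1a1 stood at 6088, 6092 and 6339 TPM, while Eef1a2, the form known from muscle and neurons, was at 0 counts in each library, with the same limits, although its protein is 92.2% identical. Eef2 was at 892, 773 and 759 TPM. Eef1a1 exceeded Eef2 by 2.94 ± 0.15 on the log2(TPM + 0.1) scale, but was below it in log2 CPM of whole-number counts (-2.60), where Eef1a1 kept 0.715% of its estimated count.

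The eEF1B exchange subunits followed. Eef1b2 was at 699, 657 and 693 TPM, Eef1g at 370.2, 369.9 and 381 and Eef1d at 318, 302 and 284 TPM. Eef1b2 was above Eef1d by 1.18 ± 0.09 and above Eef1g by 0.87 ± 0.04 on the log2(TPM + 0.1) scale. Against Eef1g the sign turned in log2 CPM of estimated counts (-0.55) and on protein-coding transcripts. Eef1e1, whose product sits in the aminoacyl-tRNA synthetase complex, averaged 34.6 ± 3.22 TPM.

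Enzymes that modify the elongation factors ranged from moderate levels to under 1 TPM. The methyltransferase genes Eef1akmt1 and Eef1akmt2 averaged 69.8 ± 5.03 and 59.0 ± 4.34 TPM, Eef2kmt 24.9 ± 3.00 and Eef1akmt4 9.39 ± 0.577 TPM (SD, n = 3). The kinase gene Eef2k, whose product phosphorylates and stops eEF2, was at 0.970, 0.580 and 0.480 TPM from 14, 9 and 12 estimated counts. Eef1akmt3 was at 0.210, 0.0400 and 0.270 TPM from 5, 1 and 6 counts. Both were therefore under 1 TPM in every library, and Eef1akmt3 was too low to test.

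Over the 18 pairs of related members, 17 kept one sign in all 3 libraries. Each of these had an exact two-sided sign-flip permutation p of 0.25, the smallest that 3 libraries allow, and 0.265 after Benjamini-Hochberg adjustment over the pairs. Eif4ebp1 against Eif4ebp2 had p = 0.5 in the same exact permutation test. No pair could pass 0.05 in this design.

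The TPM of a gene sums over its annotated transcripts, and not all of those encode protein. In 15 of the 58 detected members (25.9%), transcripts that GENCODE M21 does not class as protein-coding took 25% or more of the gene's TPM in all 3 libraries. The same held for 28.7% of the 10132 protein-coding genes at 1 TPM or more. At 50% or more the share was 15.5% of the members, 9 genes, and 12.7% of the genes. The median member had 5.44% of its TPM in such transcripts and the median gene 13.5%, and 12 members had none. By estimated counts in place of TPM, which weighs long transcripts more, 8 members reached 25% in all libraries.

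Eif1 had 72.9%, 74.0% and 72.2% of its TPM in such transcripts in libraries 1, 2 and 3. Most of it was Eif1-202, a processed transcript of 383 bases with 46.7%, 46.9% and 45.5% of the gene's TPM, while the protein-coding Eif1-201 of 1322 bases took 25.8%, 24.7% and 25.6%. The shares differed little between libraries. By estimated counts such transcripts made up 43.8% ± 1.09 of Eif1. There Eif1-201 led, with 5985 counts on average against 2881 for Eif1-202. On protein-coding transcripts alone Eif1 averaged 532 ± 39.3 TPM and still exceeded Eif1b, by 3.09 ± 0.17 on the log2(TPM + 0.1) scale.

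Eif1ax-202, a retained-intron transcript of 416 bases, took 71.8%, 75.2% and 68.7% of the TPM of Eif1ax. It held 227 estimated counts on average, against 1209 for the protein-coding Eif1ax-201 of 5172 bases, so its high TPM share rests on a short length. Eif2s1-203, a processed transcript of 433 bases, likewise took 60.6%, 60.2% and 63.5% of Eif2s1. By counts, such transcripts made up 15.6% of Eif1ax and 16.6% of Eif2s1.

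Eif4a2 had 67.1%, 66.4% and 69.0% of its TPM outside protein-coding transcripts, split between nonsense-mediated decay (34.5% ± 2.26) and retained introns (33.0% ± 3.14). By estimated counts the share was still 52.8% ± 1.95. The leading one was Eif4a2-210, annotated for decay, with 23.3%, 21.3% and 21.3%. Eef1b2 had 45.3% ± 4.11 of its TPM in decay transcripts, led by Eef1b2-205, and Eif4g1 had 30.7% ± 1.95, nearly all in Eif4g1-222.

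Eif5b was mostly Eif5b-202, a retained-intron transcript of 5788 bases with 70.7%, 71.6% and 57.0% of the gene's TPM. In Eif4ebp1 the processed transcript Eif4ebp1-202 took 80.3%, 86.2% and 83.0%, which left 3.15 ± 0.617 TPM for the transcript that carries the docking motif. Eif2b2 (65.3% ± 2.06), Eef1e1 (42.1% ± 0.535), Eif4enif1 (37.2% ± 5.60) and Eif3f (30.3% ± 3.95) had these shares in retained introns. By estimated counts their shares outside protein-coding transcripts were 42.2%, 12.8%, 13.4% and 8.32%. Eef2kmt (63.2% ± 6.95), Eif2a (44.3% ± 8.45) and Eif5 (40.2% ± 3.44) mixed several types.

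**Figure D2:**
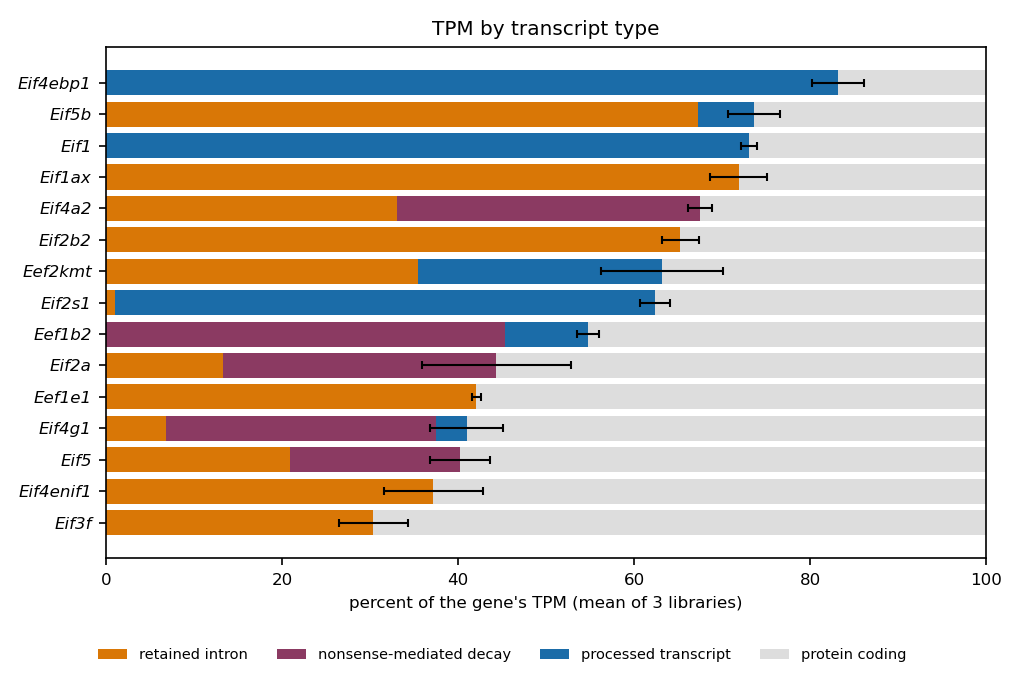
Percent of each gene's TPM by GENCODE M21 transcript type, as the mean of 3 libraries, for the 15 members with 25% or more outside protein-coding transcripts in every library; error bars are the SD of the summed non-coding share. Eif4ebp1 has the highest share at 83.2% and Eif3f the lowest at 30.3%.

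Counting only protein-coding transcripts, an alternative chosen after the data had been seen, changed the order of 6 pairs. Eif4a1 then averaged 234 ± 21.2 TPM and Eif4a2 122 ± 10.9, so the difference became 0.94 ± 0.26 on the log2(TPM + 0.1) scale in favour of Eif4a1. Eif4ebp1 fell below Eif4ebp2 by 2.29 ± 0.39 on that scale. The mean difference became -1.17 ± 0.18 for Eif1ax against Eif1a and -0.15 ± 0.08 for Eif2s1 against Eif2s2. For Eif4g1 against Eif4g3 (-0.049 ± 0.15) and Eef1b2 against Eef1g (-0.066 ± 0.10) the values no longer kept one sign in all libraries. Eef1b2 against Eef1d shrank to 0.09 ± 0.12.

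**Figure D3:**
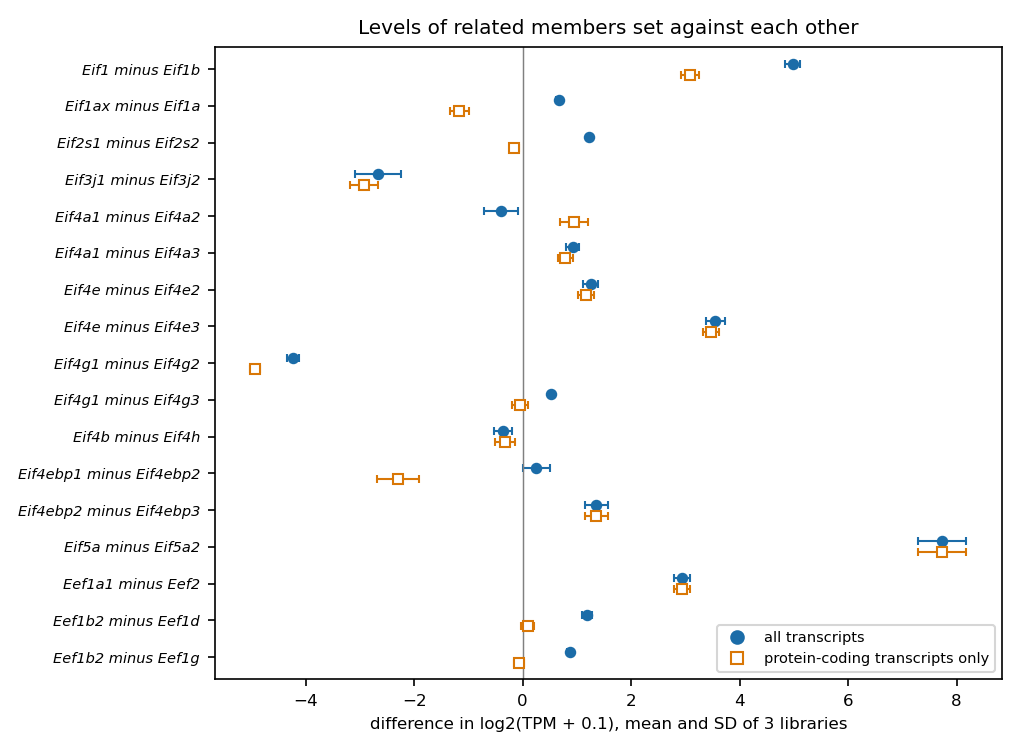
Differences in log2(TPM + 0.1) between 17 pairs of related members (first minus second), as mean and SD of 3 libraries, on all transcripts (filled circles) and on protein-coding transcripts only (open squares); Eef1a2 is left out, being at 0. Eif4a1 minus Eif4a2 lies at -0.40 on all transcripts and at 0.94 on protein-coding transcripts.

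A Poisson chi-square test asked, gene by gene, whether the 3 libraries differed once their sizes were scaled by edgeR's TMM factors. Of the 59 members that averaged 10 counts or more, 35 (59.3%) passed at a Benjamini-Hochberg adjusted p of 0.05 over all 13970 genes tested, of which 45.7% passed. Most members are deeply counted. Where the average was 500 counts or more, 33 of 46 members and 62.9% of 4666 genes passed. The median of the chi-square divided by its degrees of freedom was 4.64 for the members and 3.28 for all genes tested, yet the median fold between the highest and the lowest library was 1.14 for the members and 1.26 for all genes. Of the 35, 34 differed by less than 1.5-fold. Without library 3, 14 members and 21.3% of all genes passed, without library 1, 23 and 33.8%, and without library 2, 28 and 30.7%.

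Calls by role stand beside 45.7% of all genes tested and 62.9% of those that averaged 500 counts or more. All 11 tested genes of cap binding and helicase passed, as did both eIF2 subunits, the 3 genes of eIF5A and eIF6, 5 of 6 elongation factors, 6 of 9 genes of start codon selection and 8 of 14 eIF3 subunits. In the Poisson chi-square test, 0 of the 5 eIF2B subunits, 0 of the 4 genes of 4E-binding inhibitors and transporter and 0 of the 5 tested modifiers did. At an unadjusted p under 0.05 the numbers were 0, 0 and 1, and with DESeq2 size factors 0 of each. Single libraries held 9 to 1085 estimated counts for those genes, and the difference between roles was not tested.

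Of the 35, 25 were lowest in library 3, 7 in library 1 and 3 in library 2. Over all genes tested, 19.5% were called and lowest in library 3, or 42.5% of those called. With library sizes taken from total counts in place of TMM, 29 members and 46.1% of all genes tested were called. Of the 29, 14 were lowest in library 3, and the same share over all genes was not computed for total counts. The list of proliferation genes given above was lowest in library 3, but it was added after the values had been seen and is not an independent observation. The erythroid, B cell, plasma cell, CD8 T cell and NK cell lists were highest in library 3. The part of any of them in the members' differences was not tested.

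Eef2 had the largest chi-square of the members, 181 per degree of freedom (adjusted p = 5.75e-77, Poisson chi-square test). It had 2065, 1846 and 1725 TMM-scaled CPM in libraries 1, 2 and 3, a 1.20-fold range. Eif4a1 had 360.0, 366 and 299 CPM, Eif2s1 256, 277 and 217, and Eif4h 191, 193 and 153. In each of these library 3 was lowest. Eif5a (944, 879 and 844 CPM), Eif4g2 (1730.2, 1785 and 1657), Eif3c (308, 321 and 277) and Eif4e2 (127, 141 and 112) were also lowest in library 3. With library sizes from total counts Eif4g2 no longer passed, at a log2 difference of 0.03 between libraries 2 and 3 (adjusted p = 0.16, Poisson chi-square test), against 0.11 with TMM; over all its alternatives the adjusted p ran from 2.36e-21 to 0.16.

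Of the 59 tested members, 7 were called and highest in library 3, as were 16.2% of all genes tested. Eif4a2 was the foremost of them, with 436, 445 and 524 CPM (chi-square per degree of freedom 57.0, adjusted p = 6e-24), so it moved opposite to its paralogue Eif4a1. Eif1 had 854, 925 and 945 CPM and was lowest in library 1. Eef1a1 passed on depth, with 8101, 8273 and 8285 CPM, a 1.02-fold range. Eif5a2 was the member past 1.5-fold, with 13.0, 22.5 and 16.5 CPM from 153, 311 and 181 estimated counts. Eef1b2, at 327, 329 and 326 CPM, did not pass (adjusted p = 0.947).

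**Figure D4:**
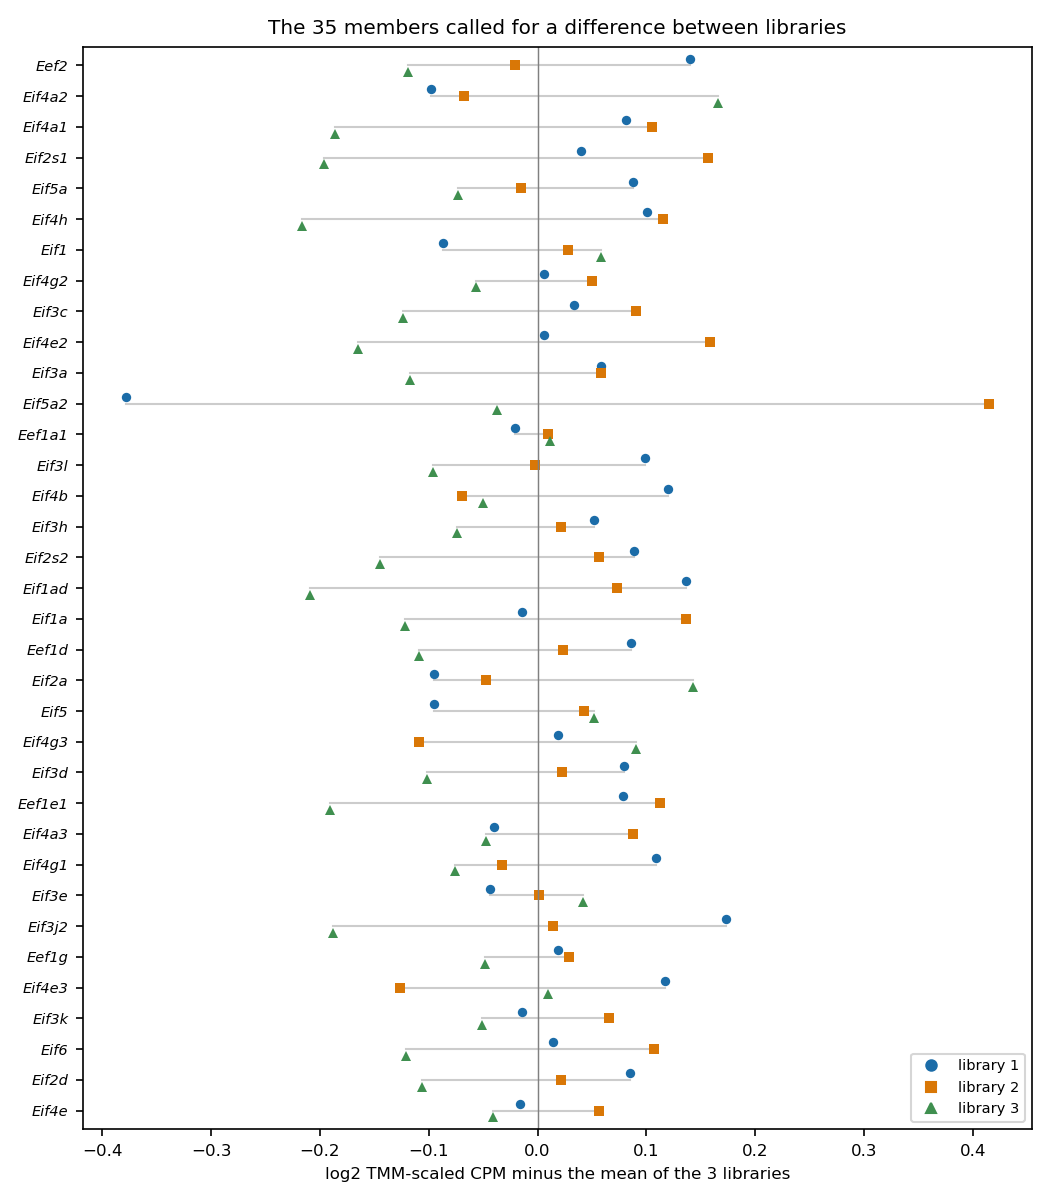
The 35 members called for a difference between libraries, as log2 TMM-scaled CPM minus the mean of the 3 libraries (1 point per library), ordered by chi-square per degree of freedom. Library 3 (triangles) is the lowest in 25 of them, Eif4a2 is highest in library 3, and Eif5a2 has the widest range.

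The deposited whole-number counts, made from the same libraries on an older annotation, gave other library orders. They were fewer by a share that differed between genes, from 0.307% of the estimated count kept for Eif3j2 to 83.4% for Eif2b4. There 10 of 54 members passed, against 21.5% of 10013 genes, and 9 of the 10 were also called on estimated counts, the exception being Eef1b2. Of the 10, 8 were lowest in library 2 and 2 in library 3, while 8 were highest in library 3 and 2 in library 1. The same shares over all genes were not computed on whole-number counts, so this order cannot be called particular to the members. Only 2 of the 9 shared had the same lowest library in both tables. Eef2, Eif5a and Eif4g2 passed in both tables, but on whole-number counts each was lowest in library 2 and highest in library 3. The log2 difference of the libraries named highest and lowest above was -0.026 for Eef2, -0.028 for Eif5a and -0.17 for Eif4g2. So those libraries were nearly level for Eef2 and Eif5a, and this difference was not tested by itself. Eif4a2 and Eif4h passed in both tables with the same direction. Eif4a1, Eif2s1, Eif1, Eif3c and Eif4e2 did not pass on whole-number counts. For Eef1a1, Eif1, Eif4a1 and Eif3j2 the whole-number count was under 3% of the estimated count, so it says little about them.

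Reads that could belong to several places limit some members. The posterior SD was 1% of the count or more in 8 of them, with 22.8% for Eif4ebp3. Another annotated gene overlaps 36 of the 62 members and lies on the opposite strand in 19, among them Eif4a2, Eef1b2, Eif2a and Eif1ad. Small RNA genes lie within Eif4a1, Eif4a2, Eef2 and Eef1b2. The sources used here do not give the strand setting of the counting, so reads of overlapping genes may have been shared.

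A list of 38 other translation genes gave the wider setting. Of these, 37 were at 1 TPM or more in all libraries and 12 of 38 tested (31.6%) were called, against 45.7% of all genes tested. The highest were Pdcd4, an inhibitor of eIF4A, at 309.8, 322 and 389.9 TPM, and the poly(A)-binding protein gene Pabpc1 and Paip2, which encodes an inhibitor of that protein, at 274 ± 7.40 and 269 ± 4.49 TPM. Among the genes of eIF2 control, Atf4, a transcription factor translated when eIF2 is phosphorylated, averaged 67.3 ± 4.43 TPM.

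Ppp1r15a, the stress-induced subunit of the phosphatase that removes the phosphate from the eIF2 alpha serine shown above, was at 27.0, 24.2 and 59.1 TPM. It was highest in library 3 by 2.31-fold over library 2 in TMM-scaled CPM (chi-square per degree of freedom 182, adjusted p = 2.19e-77), and also in the whole-number counts. Pdcd4 was highest in library 3 as well, with 553, 591 and 684 CPM, the library order of Eif4a2, whereas Eif4a1 was lowest in library 3. In the whole-number counts Pdcd4 kept 8.12% of its estimated count and did not pass (adjusted p = 0.0909, Poisson chi-square test). There Pdcd4 was lowest in library 1 and Eif4a2 in library 2. A relation between these genes was not tested. Hbs1l and Mcts1 of termination and recycling averaged 105 ± 7.92 and 97.2 ± 2.15 TPM, Rheb, an activator of mTOR, 99.4 ± 4.32, and the diphthamide genes Dph3 and Dph5 68.3 ± 6.18 and 39.0 ± 0.752 TPM. The release factor gene Gspt2 was under 1 TPM, at 0.670 ± 0.184.

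Promoter windows from RefSeq (GRCm38.p6, 250 bases before to 50 after each start) were found for 46 of the 62 members. The letters CACGTG, the E-box core known to bind MYC and related factors, stood in a window of 13 members (28.3%) and of 9.18% of 16522 protein-coding genes. The letters CCGGAAG, a core of ETS factor sites, were in 16 members (34.8%) and 13.4% of genes, on either strand. TATAAA was in 4 members (8.70%) and 14.3% of genes. These are counts of letters in a window, with several windows for some genes and no test.

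A few of these stretches are shown for members with large library differences or high levels, with the motif in capitals. They lie at chr10:81176573-81176608 (plus strand, E-box) for Eef2, chr11:69672592-69672627 (minus, E-box) for Eif4a1 and chr2:105017061-105017097 (minus, ETS core) for Eif3m.
Eef2: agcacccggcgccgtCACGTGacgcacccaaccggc
Eif4a1: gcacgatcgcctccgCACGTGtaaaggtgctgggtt
Eif3m: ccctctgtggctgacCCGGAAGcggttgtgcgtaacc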

How the data were processed

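Each library had 3 deposited tables. Gene and transcript tables on mm10 hold estimated counts, TPM, posterior mean TPM and, per transcript, the percent of the gene's TPM, per the file headers. The posterior SD of a count, a signal of how surely reads were assigned, is deposited beside it. A further table of the authors holds whole-number gene counts made on GENCODE M4. The sources used here do not give the aligner, tool versions or strand setting.

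Estimated counts were rounded and gene totals scaled by TMM (edgeR 4.0.16 in R 4.3.3) on genes that averaged 10 counts or more. With 1 group, edgeR's quasi-likelihood test cannot be run. A Poisson chi-square test compared the 3 libraries per gene, with Benjamini-Hochberg adjustment and a threshold of 0.05. It treats reads as independent. It was also run on simulated Poisson counts, which cannot show whether reads are independent in these libraries. A count of 0 allows up to 3 counts, counting error only. Related members were compared as log2(TPM + 0.1) within libraries. Python 3.11.15 with numpy 2.4.6, pandas 2.3.3, scipy 1.17.1 and biopython 1.88 was used; paralogue identity used the most abundant complete coding transcript of each gene.

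Alternatives were DESeq2 1.42.0 size factors, total counts, other filters, the posterior SD as added variance, whole-number counts, pseudocount 1 and leaving out each library. Named genes were up to 4 per role by TPM, those under 1 TPM, all genes of the pairs, the 10 called members with the largest chi-square, those with 25% or more TPM outside protein-coding transcripts, and up to 2 per pathway subgroup. Members and lists were chosen with earlier results of these data known.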

Additional observations from a re-analysis of the deposited data

How the results depend on the processing

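No paired analysis was possible because there is 1 group. Leaving out 1 library in turn gave 14 to 28 called members, 21.3% to 33.8% of all genes called and 1.67 to 4.64 as the members' median chi-square (divided by its degrees of freedom); the lowest values came without library 3. With no filter beyond a count above 0, 21.1% of all genes were called, from more genes with few counts. DESeq2 size factors left 4 called members highest in library 3. Total counts gave 6 highest in library 2, 6 lowest in library 2 and 14 lowest in library 3. Shares of all genes by highest or lowest library were not computed for DESeq2 size factors, total counts or whole-number counts. Whole-number counts gave 10 called members, 21.5% of all genes and a median chi-square of 1.74. Of these members 2 were highest in library 1, 0 in library 2 and 8 in library 3. By lowest library they numbered 0 in library 1, 8 in library 2 and 2 in library 3. On these counts the log2 differences of Eef2 (-0.026), Eif5a (-0.028) and Eif4g2 (-0.17) between their named libraries changed sign. The cause was not tested.

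The median member TPM was 75.5 with TPM rescaled to protein-coding genes and 56.2 by posterior mean TPM, against 63.3; the summed TPM was 21055 and 15256, against 17654. By estimated counts, 8 members passed the 25% limit on non-coding transcripts. Without length adjustment (CPM), 4 pairs reversed: Eif4g1-Eif4g3 (-0.16), Eif4b-Eif4h (0.32), Eif4ebp1-Eif4ebp2 (-2.21) and Eef1b2-Eef1g (-0.55). On CPM of whole-number counts 7 did: Eif1-Eif1b (-0.62), Eif3j1-Eif3j2 (3.14), Eif4a1-Eif4a3 (-3.36), Eif4e-Eif4e2 (-1.51), Eif4g1-Eif4g3 (-0.063), Eif4b-Eif4h (1.23) and Eef1a1-Eef2 (-2.60). On protein-coding transcripts 6 did: Eif1ax-Eif1a (-1.17), Eif2s1-Eif2s2 (-0.15), Eif4a1-Eif4a2 (0.94), Eif4g1-Eif4g3 (-0.049), Eif4ebp1-Eif4ebp2 (-2.29) and Eef1b2-Eef1g (-0.066). No pair reversed with a pseudocount of 1, posterior mean TPM or a library left out.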
